A study of Mus musculus with 8 samples.

Results

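Rab GTPases are small membrane-bound proteins that give each compartment of the secretory and endocytic pathways its identity. Exchange factors load them with GTP, the active form recruits effectors such as tethers, motors and coat regulators, and GTPase-activating proteins switch them off again. A lipid anchor added by Rab geranylgeranyl transferase holds them on the membrane, and GDP dissociation inhibitors carry them between membranes. In hormone-secreting cells, Rab3 and Rab27 proteins sit on secretory granules and take part in their docking and release. Many other family members serve transport between the endoplasmic reticulum (ER), Golgi, endosomes and lysosomes, and some serve granules, exocytosis or the cilium.

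The Rab genes were taken by symbol from a table of read counts for 55536 mouse genes. Of 59 rows whose symbol was Rab with a number and at most a letter and a digit, 44 had a mean of at least 1 CPM (counts scaled to a common library size) over all libraries and are described here. All 44 are annotated as protein coding and passed the filter on low counts, as did 6 of the 15 others. The lowest members were Rab39, Rab4b and Rab27b, with means of 1.31, 1.57 and 2.42 CPM, and Rab40b, Rab32 and Rab25 lay just below, with 0.694, 0.492 and 0.458 CPM. Among the 15 rows left out, Rab19 and Rab38 had 0 counts in every library, where 3 counts would be 0.0468 to 0.0637 CPM. Library sizes were adjusted by the TMM method.

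The RNA came from alphaTC6, a tumour-derived line of glucagon-making mouse alpha cells whose genotype is labelled wild type. Reverse transfection with RNAiMax Lipofectamine lasted 48 h and delivered an siRNA pool against Klf4, a zinc finger transcription factor, or scramble siRNA as the control. The study asked which genes Klf4 regulates in alpha cells. There were 4 libraries of poly(A) RNA per treatment, described as biological replicates: scramble replicates 1 and 2 and Klf4 siRNA replicates 1, 2 and 4 formed batch 1, and the other 3 libraries, with Klf4 siRNA replicate 3 among them, formed batch 2. What a batch stands for is not given in the labels, whose extraction text speaks of islets although the samples are labelled as a cell line.

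Totals ran from 45954151 to 64185987 counts per library. Klf4 itself ran from 35.1 to 46.8 CPM in scramble libraries and from 11.5 to 19.8 CPM after Klf4 siRNA. All 8 alpha cell markers examined were detected, with a summed level of 4951 to 5225 CPM in batch 1 and 11880 to 13190 CPM in batch 2, most of that difference being Gcg, the glucagon gene. Of 6 beta cell markers, Ins1, Ins2 and Pdx1 had 0 counts throughout and the summed level was 107.0 to 122.7 CPM in batch 1 and 139.0 to 152.2 CPM in batch 2, nearly all from Nkx6-1. Nkx6-1 differed by 0.32 (log2) between batches (edgeR adjusted p = 2.95e-06) and by -0.12 after Klf4 siRNA (edgeR adjusted p = 0.044), and its part in the results was not tested. Markers of delta, PP and epsilon cells summed to at most 0.453 CPM and those of endothelial, immune and stromal cells to at most 0.515 CPM. Acinar and duct markers summed to 7.318 to 8.69 CPM in batch 1 and 9.549 to 11.05 CPM in batch 2, with Prss2 at 0 throughout. Among them Sox9, a duct and progenitor factor, was at 1.06 to 1.53 CPM in batch 1 and 3.74 to 4.63 CPM in batch 2 (edgeR adjusted p = 6.95e-10), and its part in the results by batch was not tested. The 59 Rab rows together made up 0.334% to 0.356% of all counts, depending on the library.

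To show the regulatory DNA of the 5 members with the largest fitted changes among those past the threshold for treatment (below), stretches of 40 bases were taken from the 250 bases upstream of RefSeq transcription starts (GRCm38.p6), each around the match nearest to the start that lay outside the gene's GENCODE exons. Capitals mark matches on either strand to CACCC, a short element bound by KLF proteins, or to CCNCNCCC, a GC-rich form of it. Both words overlap in places. Each line gives the strand of the gene in the direction of transcription, with Rab33b at chr3:51483748-51483787 (plus), Rab9 at chrX:166479875-166479914 (minus), Rab12 at chr17:66519752-66519791 (minus), Rab27a at chr9:73044770-73044809 (plus) and Rab8b at chr9:66919713-66919752 (minus).
Rab33b: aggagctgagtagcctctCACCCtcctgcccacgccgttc
Rab9: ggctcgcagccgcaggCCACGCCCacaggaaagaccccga
Rab12: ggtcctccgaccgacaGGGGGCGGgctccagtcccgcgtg
Rab27a: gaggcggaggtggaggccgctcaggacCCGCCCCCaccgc
Rab8b: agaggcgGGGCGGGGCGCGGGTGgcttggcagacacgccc

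Such words are common. CACCC occurred upstream of 28 of the 37 members with an entry (75.7%), of 61.3% of the 10726 tested genes with an entry, and of 54.5% of all 27025 genes with one. CCNCNCCC occurred in 27 of the 37 (73.0%), in 67.7% of those tested genes and in 48.5% of all genes. Among the 8 members that were lower after Klf4 siRNA (below), CACCC was found for all but Rab9, and CCNCNCCC for all but Rab31 and Rab33b. These counts describe letters in a window and not binding.

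Rab7, which directs late endosomes towards lysosomes, had the highest level per length, a mean of 183.8 CPM per kb of exons. It was followed by Rab2a (92.2), Rab1b (70.1), Rab3a (65.7) and Rab1a (56.8 CPM per kb). Rab1a, Rab1b and Rab2a act between the ER and the Golgi. Rab3a, the principal Rab3 form of neurons and endocrine cells, was thus at rank 4 of the 44 over all libraries. In batch 2 it lay above Rab1b (75.7 against 64.2 CPM per kb) and in batch 1 below it (59.6 against 73.6). Rab27a, which links granules to the actin cortex and the plasma membrane, was at rank 17 with 14.3 CPM per kb. Among the 7 granule-associated members detected, Rab37 (19.5), Rab3d (11.5), Rab3c (7.39) and Rab3b (3.14 CPM per kb) were also present, and Rab27b had the lowest level of all members (0.226 CPM per kb). Rab26, another granule form, had a mean of 0.0857 CPM and was not among the 44. Levels per kb and ranks use exons merged over all annotated transcripts, which can be far longer than a single transcript. Rab14 has 13589 such bases, and its longest coding transcript holds 3032 words of 50 bases. Another choice of length could change the order, that of Rab3a included, and was not tried.

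**Figure D1:**
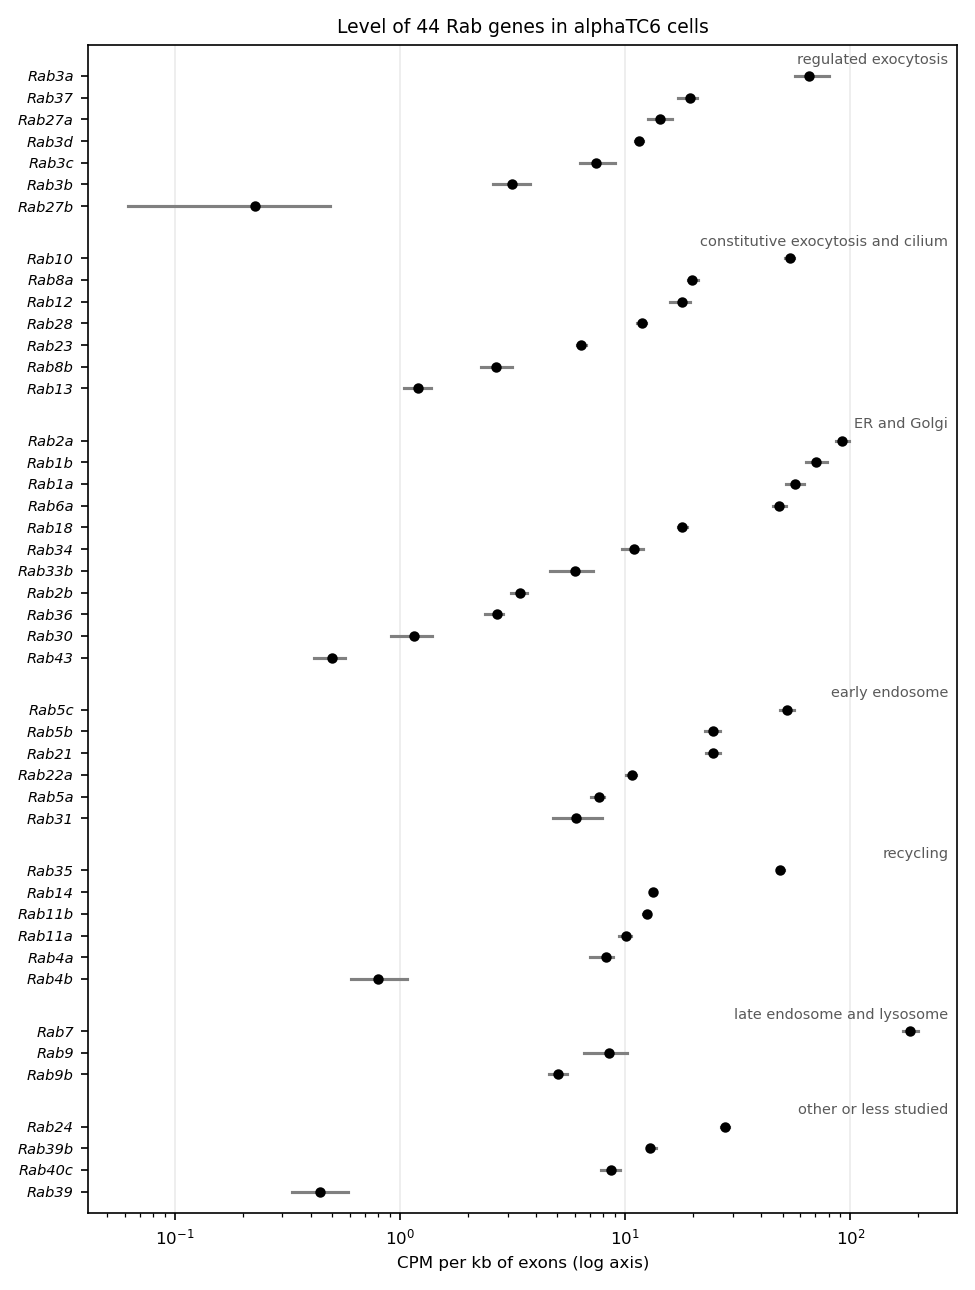
Level of each of the 44 Rab genes as CPM per kb of merged exons on a log axis, grouped by role; points are means of 8 libraries and grey lines run from the lowest to the highest library. Rab7 lies highest at 183.8 CPM per kb, and Rab27b has the widest range for its level.

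Klf4 siRNA libraries were then compared with scramble libraries, with batch as a term in the fit. Of the 44 members, 8 were lower and 2 higher at an edgeR quasi-likelihood Benjamini-Hochberg adjusted p under 0.05, adjusted over all 16333 genes tested. That is 22.7% of the members, against 11.7% of all tested genes and 14.8% of the 12722 tested genes with a mean of at least 1 CPM. Members that were lower made up 18.2%, against 6.81% of all tested genes and 8.58% of those with at least 1 CPM. Members that were higher made up 4.55%, against 4.88% and 6.22%. Because the enrichment of the family was not tested, these shares are descriptions.

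Changes were small. The members' median log2 fold change was -0.042, with 28 negative and 16 positive values, against a median of 0.0014 for tested genes with at least 1 CPM. The median absolute log2 fold change was 0.074 for the members and 0.064 for those genes. At an unadjusted p under 0.05 there were 21 of the 44 members and 3908 of the 16333 genes tested. The values within batch 1 and within batch 2 had the same sign for 36 of the 44 members (81.8%), against 68.7% of tested genes with at least 1 CPM. In bulk RNA of this kind, fewer cells of a type and less RNA per cell cannot be told apart.

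**Figure D2:**
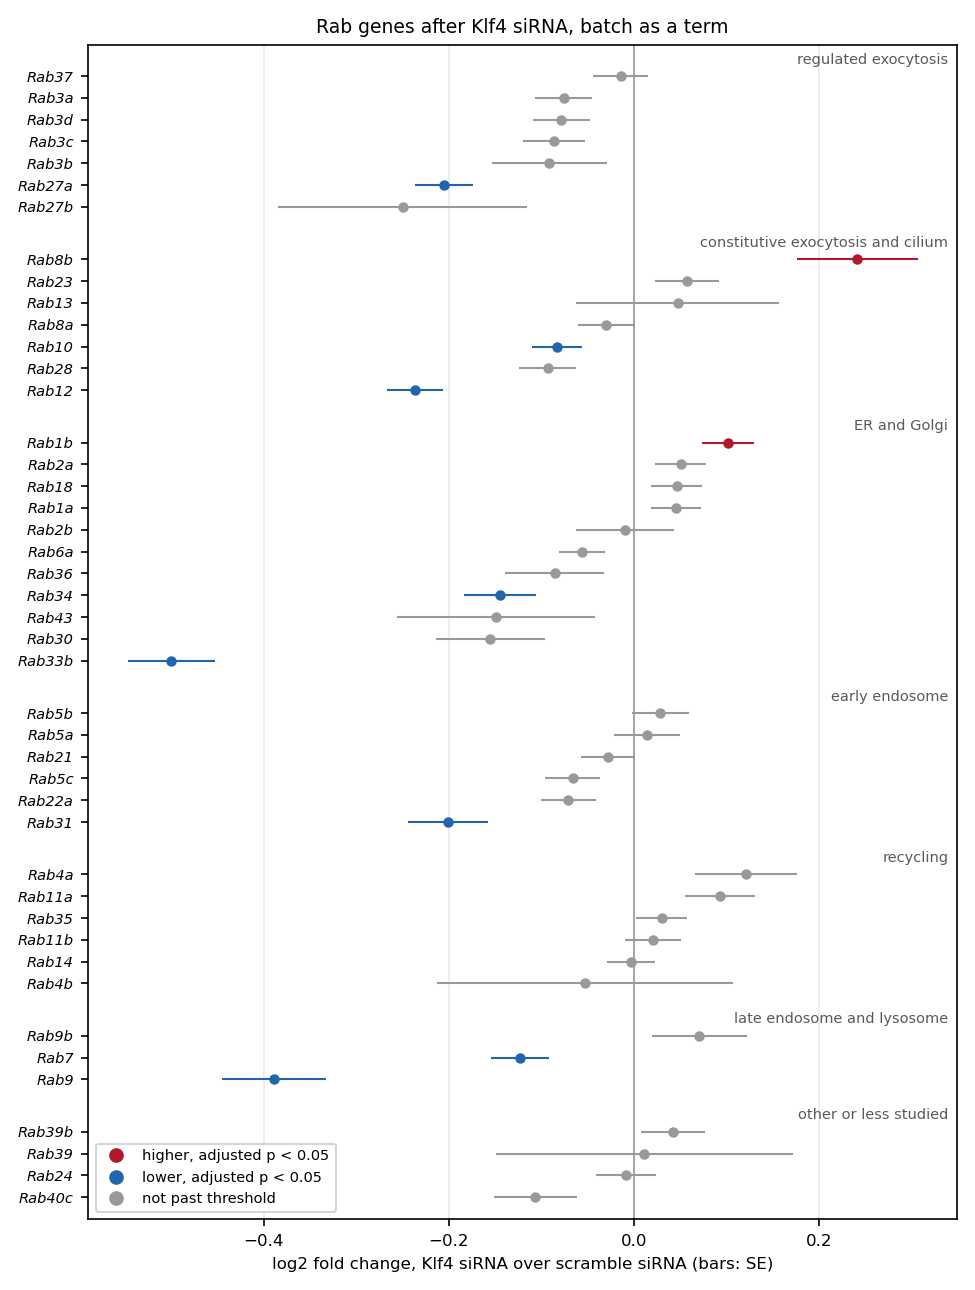
Log2 fold change of Klf4 siRNA over scramble siRNA for 44 Rab genes with batch as a term, grouped by role; bars are standard errors, and colours mark an edgeR adjusted p under 0.05. Rab33b and Rab9 lie farthest left at -0.50 and -0.39, and 8 of the 10 coloured points are below 0.

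Among the 7 granule-associated members, Rab27a fell and the other 6 did not pass the threshold. Rab27a was at 60.5, 62.8, 56.0 and 56.6 CPM in scramble replicates 1 to 4 and at 52.6, 55.1, 49.1 and 52.2 CPM in Klf4 siRNA replicates 1 to 4. Every Klf4 siRNA library was below every scramble library. The means were 59.0 ± 3.22 and 52.2 ± 2.45 CPM (SD, n = 4 each), which the fit put at a log2 fold change of -0.20 ± 0.03 (SE), 86.8% of scramble (edgeR adjusted p = 0.00014). Batch 1 and batch 2 taken singly gave -0.21 and -0.20. Without the batch term the adjusted p was 0.114 at -0.17. The gene (ENSMUSG00000032202, chromosome 9, 73044854 to 73097629, GRCm38, plus strand) shares 149 exonic bases with Gm27186 on the same strand.

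Rab3a did not pass the threshold. It was at 132.4, 139.8, 166.6 and 178.3 CPM in scramble replicates 1 to 4 and at 126.8, 133.2, 160.5 and 131.5 CPM in Klf4 siRNA replicates 1 to 4, so that the treatments overlapped and the libraries of batch 2 (scramble replicates 3 and 4, Klf4 siRNA replicate 3) were the highest. Its log2 fold change was -0.08 ± 0.03 (SE; edgeR adjusted p = 0.128). The fitted values of Rab3b, Rab3c, Rab3d, Rab27b and Rab37 were negative too, from -0.25 for Rab27b to -0.01 for Rab37, with edgeR adjusted p from 0.107 to 0.833. For Rab3d alone of these 5, every Klf4 siRNA library was below every scramble library (means of 49.6 and 46.9 CPM).

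In the ER and Golgi group, 2 of 11 members fell, 1 rose and 8 did not pass. Rab33b, a Golgi Rab that binds the autophagy protein Atg16l1, had the largest fall of the family. It was at 25.04, 24.0, 25.2 and 25.4 CPM in scramble replicates 1 to 4 and at 16.7, 16.4, 19.3 and 16.8 CPM in Klf4 siRNA replicates 1 to 4. The scramble libraries lay close together and every Klf4 siRNA library was below them. Means were 24.9 ± 0.616 and 17.3 ± 1.34 CPM (SD, n = 4 each), which the fit put at a log2 fold change of -0.50 ± 0.05 (SE), 70.7% of scramble (edgeR adjusted p = 3.39e-07). The change was -0.56 within batch 1 and -0.39 within batch 2, and the interaction of batch and treatment had an unadjusted p of 0.087. Rab33b (ENSMUSG00000027739, chromosome 3, 51483920 to 51496232, plus strand) shares 661 of its exonic bases with Gm38160 on the opposite strand, and the authors' use of strand is not given in the sources used here.

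Rab34, found at the Golgi and on the way to the primary cilium, was at 28.6, 28.3, 25.2 and 25.6 CPM in scramble replicates 1 to 4 and at 25.6, 25.6, 23.1 and 25.7 CPM in Klf4 siRNA replicates 1 to 4. The treatments overlapped across batches and were apart within each batch. The log2 fold change was -0.15 ± 0.04 (SE; edgeR adjusted p = 0.018), and leaving out scramble replicate 1 or 2 or Klf4 siRNA replicate 3 gave an adjusted p of 0.101, 0.079 and 0.082.

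Rab1b, which acts in transport from the ER to the Golgi, was the member of this group that rose. It was at 159.0, 158.4, 143.8 and 144.2 CPM in scramble replicates 1 to 4 and at 169.2, 170.4, 149.9 and 179.3 CPM in Klf4 siRNA replicates 1 to 4. Here too the libraries overlapped between treatments across batches and not within a batch. The log2 fold change was 0.10 ± 0.03 (SE; edgeR adjusted p = 0.023), which became 0.128 and 0.143 without scramble replicates 1 and 2. Its paralogue Rab1a did not pass (log2 fold change 0.05, edgeR adjusted p = 0.345). Whether the paralogues differed was not tested.

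In the late endosome and lysosome group, 2 of 3 members fell. Rab9, which returns receptors from late endosomes to the trans-Golgi, was at 16.6, 15.9, 17.8 and 17.7 CPM in scramble replicates 1 to 4 and at 11.5, 13.3, 14.0 and 11.8 CPM in Klf4 siRNA replicates 1 to 4. The treatments did not overlap. Means were 17.0 ± 0.906 and 12.6 ± 1.19 CPM (SD, n = 4 each), which the fit put at a log2 fold change of -0.39 ± 0.06 (SE), 76.4% of scramble (edgeR adjusted p = 7.42e-05). The change was -0.42 within batch 1 and -0.35 within batch 2. The gene lies on chromosome X (ENSMUSG00000079316, 166457253 to 166479867, minus strand), and 7.87% of the 50-base words of its longest transcript also occur in transcripts of other genes, chiefly a Rab9b pseudogene. The paralogue Rab9b did not pass (log2 fold change 0.07, edgeR adjusted p = 0.451).

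Rab7 was at 509.3, 518.9, 462.1 and 498.4 CPM in scramble replicates 1 to 4 and at 448.3, 471.4, 451.0 and 478.4 CPM in Klf4 siRNA replicates 1 to 4. Scramble replicate 3 lay among the Klf4 siRNA libraries, so the treatments overlapped. The fitted log2 fold change was -0.12 ± 0.03 (SE), 91.8% of scramble (edgeR adjusted p = 0.013). Leaving out scramble replicate 1 or 2 gave an adjusted p of 0.068 or 0.108. Of its 50-base words, 14.5% also occur in transcripts of other genes, those of a Rab7 pseudogene.

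In the group for constitutive exocytosis and the cilium, 2 of 7 members fell, 1 rose and 4 did not pass. Rab12 is placed in this group by the list used, although it is also known for taking cargo from recycling endosomes to lysosomes, so the counts of this group and of the recycling group depend on that placement. It was at 58.4, 58.5, 59.0 and 58.3 CPM in scramble replicates 1 to 4 and at 49.0, 49.6, 51.2 and 47.9 CPM in Klf4 siRNA replicates 1 to 4. The scramble libraries were nearly equal and all Klf4 siRNA libraries were lower. Means were 58.5 ± 0.321 and 49.4 ± 1.35 CPM (SD, n = 4 each), which the fit put at a log2 fold change of -0.24 ± 0.03 (SE), 84.9% of scramble (edgeR adjusted p = 1.99e-05). Rab12 (ENSMUSG00000023460, chromosome 17, 66494512 to 66519729, minus strand) shares no exonic base with another annotated gene and did not differ detectably between batches (log2 difference 0.03, edgeR adjusted p = 0.481).

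Rab8b, a form of Rab8 that carries exocytic vesicles to the plasma membrane, was the only other member that rose. It was at 10.8, 12.4, 11.5 and 11.8 CPM in scramble replicates 1 to 4 and at 14.9, 14.2, 13.4 and 12.4 CPM in Klf4 siRNA replicates 1 to 4. The groups did not overlap, although scramble replicate 2 and Klf4 siRNA replicate 4 were close. The fitted log2 fold change was 0.24 ± 0.07 (SE), 118.2% of scramble (edgeR adjusted p = 0.019). Leaving out scramble replicate 1, Klf4 siRNA replicate 1 or Klf4 siRNA replicate 3 gave an adjusted p of 0.167, 0.064 or 0.070. Its paralogue Rab8a did not pass (log2 fold change -0.03, edgeR adjusted p = 0.625).

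Rab10, which serves insulin-regulated and basolateral exocytosis, passed narrowly. It was at 194.9, 198.2, 196.4 and 192.4 CPM in scramble replicates 1 to 4 and at 180.4, 191.4, 182.8 and 185.7 CPM in Klf4 siRNA replicates 1 to 4, without overlap. The log2 fold change was -0.08 ± 0.03 (SE; edgeR adjusted p = 0.049). The adjusted p was over 0.05 without scramble replicate 1, 2, 3 or 4 (0.130, 0.217, 0.107 and 0.052) and without Klf4 siRNA replicate 1 or 3 (0.134 and 0.198). Rab28, a ciliary member, lay just outside the threshold, with groups that did not overlap (log2 fold change -0.09, edgeR adjusted p = 0.058).

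In the early endosome group, 1 of 6 members fell. Rab31, which works between the trans-Golgi and endosomes, was at 21.3, 21.2, 30.1 and 29.9 CPM in scramble replicates 1 to 4 and at 19.5, 18.3, 25.1 and 19.0 CPM in Klf4 siRNA replicates 1 to 4. Batch 2 was higher in both treatments, so that the treatments overlapped across batches and were apart within each. The log2 fold change was -0.20 ± 0.04 (SE; edgeR adjusted p = 0.0039). It missed the threshold, at 0.079, when Klf4 siRNA replicate 3 was left out. Rab5a, Rab5b, Rab5c, Rab21 and Rab22a did not pass. None of the 6 recycling members passed, and none of the 4 other or less studied members (Rab24, Rab39, Rab39b and Rab40c). The recycling members Rab11a and Rab4a had positive values of 0.09 and 0.12 (edgeR adjusted p = 0.132 and 0.183).

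**Figure D3:**
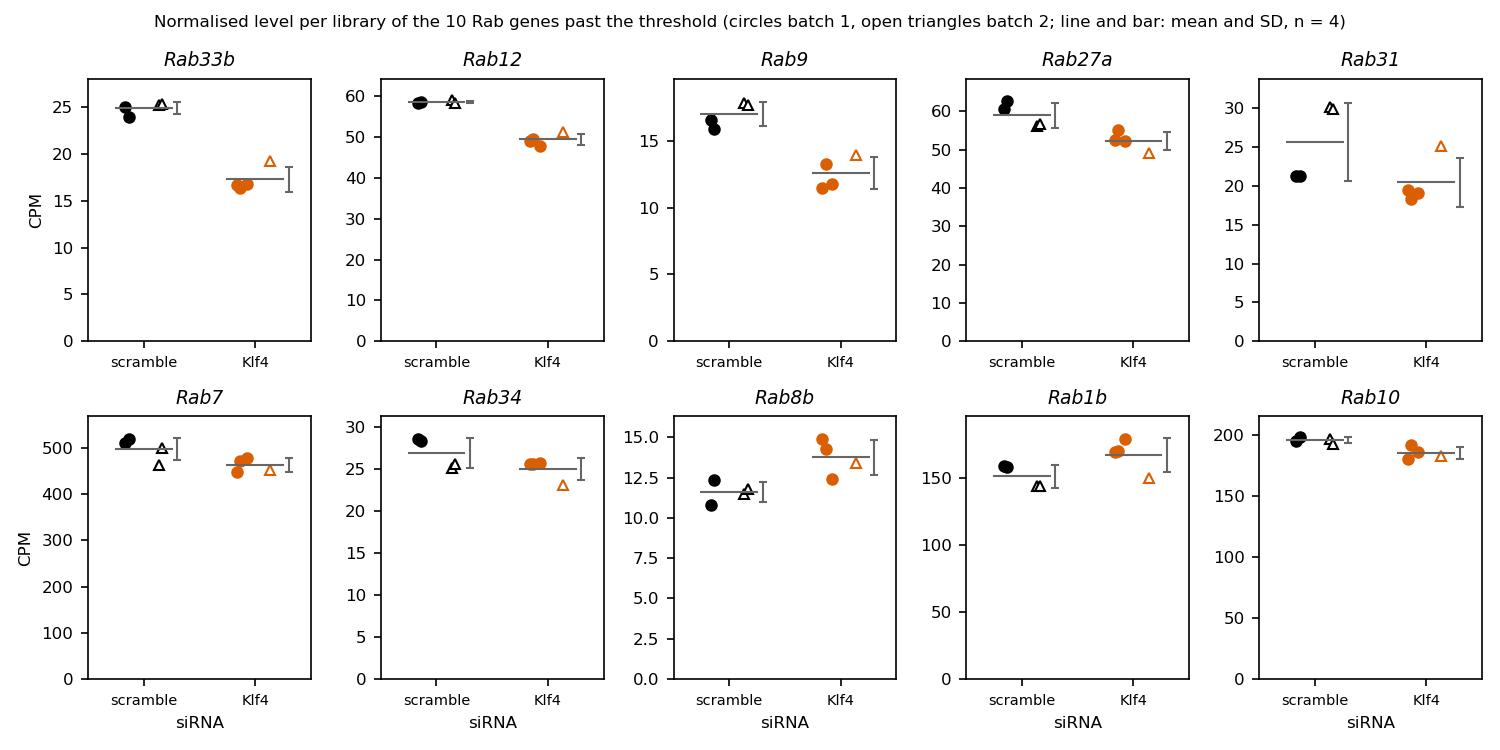
CPM in each of the 8 libraries for the 10 Rab genes past the threshold, by siRNA; circles are batch 1, open triangles batch 2, horizontal lines means and vertical bars SDs (n = 4). For Rab33b, Rab12, Rab9, Rab27a, Rab8b and Rab10 the treatments do not overlap, and for Rab31, Rab7, Rab34 and Rab1b they do.

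The 2 treatments did not overlap in CPM for 10 of 44 members, against 10.5% of all tested genes and 12.7% of those with at least 1 CPM. Of these 10, 6 passed the threshold, and the other 4 were Rab3d, Rab5c, Rab22a and Rab28, each lower after Klf4 siRNA. The count of members past the threshold fell to 5 or 6 when scramble replicate 1 or 2 was left out and to 6 when Klf4 siRNA replicate 3 was, where 5.63%, 6.06% and 7.44% of all tested genes passed. It was 3 without the batch term, where 2.5% of tested genes passed. In batch 1 alone, Rab31, Rab34, Rab8b and Rab10 did not pass (edgeR adjusted p = 0.0955, 0.0787, 0.0885 and 0.170). Rab33b, Rab12 and Rab9 passed under all 16 alternatives run.

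**Figure D4:**
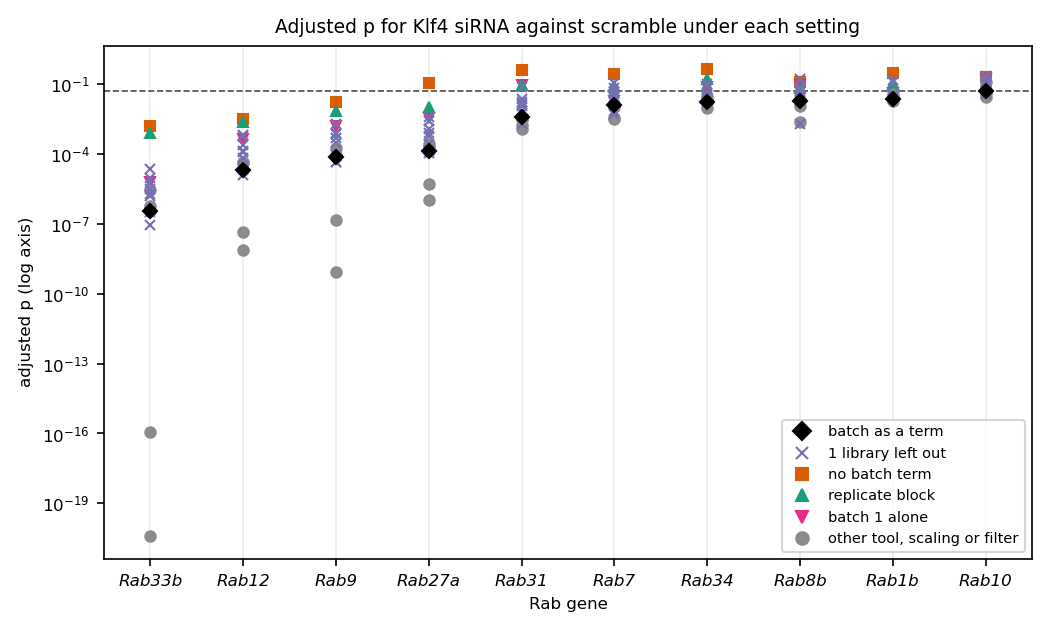
Adjusted p on a log axis for the 10 Rab genes, from edgeR except for DESeq2 and limma-voom among the grey points, with a symbol for each kind of setting; the dashed line is the threshold of 0.05. Every symbol of Rab33b, Rab12 and Rab9 lies below the line, and the square for no batch term lies above it for the other 7 genes.

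The genes that act on Rab proteins were examined as 5 lists, of which 127 of 135 listed genes were tested. Of these, 9 rose and 10 fell, where 11.7% of all tested genes and 14.8% of those with a mean of at least 1 CPM passed. The share of the listed genes that passed was close to that 14.8%. No list had a median log2 fold change beyond 0.029 in size. The lists were chosen with earlier results of these data known, and their counts are descriptions. Without the batch term, 2 of these genes passed.

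Among exchange factors, 3 of 31 tested genes rose, 4 fell and 24 did not pass. Dennd1b, an activator of Rab35, rose: scramble libraries averaged 23.0 ± 1.62 and Klf4 siRNA libraries 30.8 ± 1.35 CPM (SD, n = 4 each), with a fitted change of 0.39 ± 0.05 (log2, SE; edgeR adjusted p = 6.2e-06). C9orf72, part of a complex with exchange activity towards several Rab proteins, rose: scramble libraries averaged 13.7 ± 1.12 and Klf4 siRNA libraries 18.7 ± 0.714 CPM, with a fitted change of 0.46 ± 0.06 (log2, SE; edgeR adjusted p = 1.99e-05). Ric1, part of the exchange factor for Rab6a that also binds Rab33b, fell by 0.19 on the log2 scale (edgeR adjusted p = 0.0013). Mon1a, part of the exchange factor for Rab7, fell by 0.20 (edgeR adjusted p = 0.022). For Mon1a the adjusted p was 0.156, 0.051 and 0.106 without scramble replicate 1, Klf4 siRNA replicate 1 or Klf4 siRNA replicate 3. Dennd1b and C9orf72 share 821 and 247 exonic bases with annotations on the opposite strand.

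Among GTPase-activating proteins, 2 of 39 tested genes rose, 2 fell and 35 did not pass. Evi5, which acts on Rab11, rose by 0.20 in log2 terms (edgeR adjusted p = 0.0003), and Rabgap1l rose by 0.15 (0.024). Tbc1d16, which acts on Rab4a, was lower, with a fitted value of -0.11 (edgeR adjusted p = 0.012), and so was Tbc1d31, with -0.11 (0.035). Leaving out a library took the adjusted p to at most 0.246 for Rabgap1l (without Klf4 siRNA replicate 3; also over 0.05 without scramble replicate 2 or Klf4 siRNA replicate 1). For Tbc1d16 it was at most 0.100 (without scramble replicate 2; also over 0.05 without scramble replicate 1 or Klf4 siRNA replicate 3). For Tbc1d31 it was at most 0.153 (without scramble replicate 1) and over 0.05 without any library other than scramble replicate 3 and Klf4 siRNA replicate 1. None of the 8 genes for prenylation and the membrane cycle passed, GDP dissociation inhibitors and Rab escort proteins included.

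Of 11 tested granule effectors of Rab3 and Rab27, 2 fell and 9 did not pass. Myrip, which ties Rab27a on granules to myosin and actin, averaged 5.14 ± 0.218 CPM with scramble and 4.26 ± 0.228 CPM with Klf4 siRNA (SD, n = 4 each), with a fitted change of -0.29 ± 0.08 (log2, SE; edgeR adjusted p = 0.017). Exph5, another Rab27 effector, averaged 4.58 ± 0.248 CPM with scramble and 3.63 ± 0.399 CPM with Klf4 siRNA, with a fitted change of -0.29 ± 0.08 (log2, SE; edgeR adjusted p = 0.028). For both, the treatments did not overlap. The adjusted p of Myrip was 0.088 and 0.058 when scramble replicate 1 or 2 was left out and 0.095 when Klf4 siRNA replicate 3 was. That of Exph5 was 0.183 and 0.084 without scramble replicates 1 and 2 and 0.051, 0.053 and 0.053 without Klf4 siRNA replicates 2, 3 and 4.

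Of 38 tested other effectors, 4 rose, 2 fell and 32 did not pass. Fyco1, a Rab7 effector that links late endosomes and autophagosomes to kinesin, rose: scramble libraries averaged 21.1 ± 3.27 and Klf4 siRNA libraries 28.1 ± 2.71 CPM (SD, n = 4 each), with a fitted change of 0.33 ± 0.04 (log2, SE; edgeR adjusted p = 3.7e-05). Bicd2, a dynein adaptor bound by Rab6, rose by 0.14 (edgeR adjusted p = 0.0039), and Eea1, the endosome tether bound by Rab5, rose by 0.15 (0.0062). Erc1, a Rab6 effector at exocytic sites, fell by 0.14 (edgeR adjusted p = 0.0026). Without scramble replicate 2 the adjusted p was 0.0501 for Bicd2 and 0.059 for Eea1, and without Klf4 siRNA replicate 3 it was 0.097 for Eea1. Erc1 shares 1919 exonic bases with Gm44317 on the opposite strand.

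Batches were compared in the same fit, with treatment as a term. Of the 44 members, 14 were higher and 5 lower in batch 2 (edgeR adjusted p under 0.05). That is 43.2% of the members, against 32.7% of all tested genes and 37.8% of those with at least 1 CPM. Members higher in batch 2 made up 31.8%, against 16.8% and 18.7%, and those lower 11.4%, against 15.9% and 19.1%. The libraries of the batches did not overlap for 18 members, against 29.4% of all tested genes and 32.8% of those with at least 1 CPM. Gcg moved with batch as well, from 1065 to 1257 CPM in batch 1 to 7640 to 8913 CPM in batch 2, and Gcg's part in the results by batch was not tested.

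**Figure D5:**
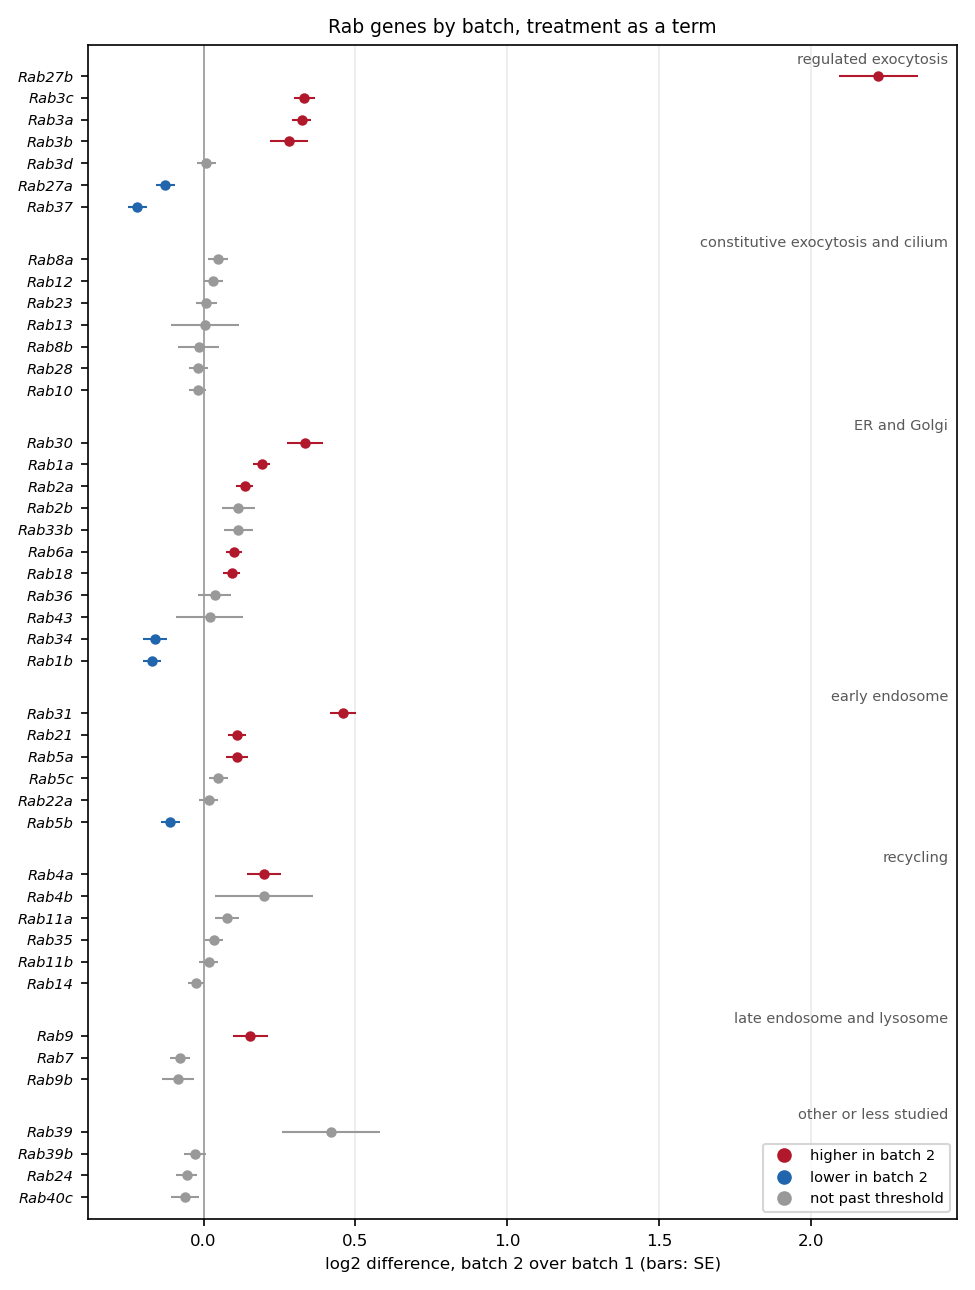
Log2 difference of batch 2 over batch 1 for 44 Rab genes with treatment as a term, grouped by role; bars are standard errors, and colours mark an edgeR adjusted p under 0.05. Rab27b lies apart at 2.22, Rab3a, Rab3b and Rab3c lie between 0.28 and 0.33, and no member for constitutive exocytosis and the cilium is coloured.

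The batch differences of the granule-associated members were mixed in direction, with 4 of 7 higher and 2 lower in batch 2. Rab27b had the largest difference of the family. It was at 1.18 and 1.21 CPM for scramble and 1.06, 0.830 and 0.660 CPM for Klf4 siRNA libraries of batch 1, and at 5.23 and 4.52 CPM in scramble and 4.63 CPM in the Klf4 siRNA library of batch 2. Raw counts were 35 to 66 in batch 1 and 244 to 335 in batch 2. The fitted log2 difference was 2.22 ± 0.13 (SE; edgeR adjusted p = 3.27e-11), or 4.67-fold. Its mean over all libraries thus passed 1 CPM through batch 2, and in batch 1 it was 0.988 ± 0.237 CPM (SD, n = 5). A difference of at least 1 on the log2 scale in either direction, past the threshold, was found for 1 member and for 4.19% of all tested genes.

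Rab3a was at 132.7 ± 4.68 CPM in batch 1 (SD, n = 5) and at 168.5 ± 9.05 CPM in batch 2 (SD, n = 3), a log2 difference of 0.32 ± 0.03 (SE; edgeR adjusted p = 8.2e-08). All 3 libraries of batch 2 were above all 5 of batch 1. Rab3c was at 83.6 and 84.2 CPM for scramble and 76.9, 82.2 and 76.0 CPM for Klf4 siRNA libraries of batch 1, and at 108.0, 101.1 and 99.9 CPM in batch 2 (scramble replicates 3 and 4, Klf4 siRNA replicate 3). Its log2 difference was 0.33 (edgeR adjusted p = 1.68e-07). Rab3b was at 9.14 to 10.8 CPM in batch 1 and at 11.95, 13.2 and 12.5 CPM in batch 2, a log2 difference of 0.28 (edgeR adjusted p = 0.0016), whose adjusted p was 0.062 when Klf4 siRNA replicate 3 was left out. Rab3d showed no detectable difference (0.01, edgeR adjusted p = 0.868).

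Rab37 and Rab27a went the other way. Rab37 was at 109.1 and 111.0 CPM for scramble and 107.6, 111.1 and 108.5 CPM for Klf4 siRNA libraries of batch 1, and at 91.7, 97.8 and 93.6 CPM in batch 2. The batches did not overlap, and the log2 difference was -0.22 ± 0.03 (SE; edgeR adjusted p = 1.24e-05). For Rab27a the log2 difference was -0.13 (edgeR adjusted p = 0.0050), and its batches overlapped because Klf4 siRNA libraries of batch 1 lay among those of batch 2.

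Of the ER and Golgi members, 5 of 11 were higher and 2 lower in batch 2. Rab30, a Golgi Rab, was at 10.9 and 10.6 CPM for scramble and 9.83, 9.67 and 8.82 CPM for Klf4 siRNA libraries of batch 1, and at 13.1, 13.3 and 12.3 CPM in batch 2, a log2 difference of 0.34 (edgeR adjusted p = 0.00017). Rab1a was at 197.7 to 211.9 CPM in batch 1 and at 229.3, 233.5 and 235.7 CPM in batch 2, a log2 difference of 0.19 (edgeR adjusted p = 1.88e-05). Its paralogue Rab1b moved in the opposite direction, with a log2 difference of -0.17 (edgeR adjusted p = 0.00013), from 167.3 ± 8.76 CPM (SD, n = 5) to 145.9 ± 3.42 CPM (SD, n = 3). Rab2a, Rab6a and Rab18 were higher by 0.14, 0.10 and 0.09, and Rab34 had a log2 difference of -0.16. Rab18 did not pass when scramble replicate 1, 2 or 3 or Klf4 siRNA replicate 3 was left out or with no treatment term, and the last of these also ended the calls of Rab34 and Rab27a.

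In the early endosome group, 3 of 6 members were higher and 1 lower in batch 2. Rab31 was at 19.9 ± 1.35 CPM in batch 1 (SD, n = 5) and 28.4 ± 2.81 CPM in batch 2 (SD, n = 3), a log2 difference of 0.46 ± 0.04 (SE; edgeR adjusted p = 6.18e-08). Rab5a and Rab21 were higher by 0.11 each, and Rab5b had a log2 difference of -0.11. Among scramble libraries alone neither Rab5a nor Rab5b passed. Rab5a also missed the threshold with no treatment term, with the DESeq2 Wald test, and when scramble replicate 2, 3 or 4 or Klf4 siRNA replicate 3 was left out. Rab5b missed it when scramble replicate 1 or 3 or Klf4 siRNA replicate 3 was left out, and Rab21 when that last library was. Of the recycling members, Rab4a alone passed, at 12.2 to 14.6 CPM in batch 1 and 15.3 to 15.5 CPM in batch 2 (log2 difference 0.20, edgeR adjusted p = 0.0092, with 0.067 when scramble replicate 2 was left out and 0.0717 with no treatment term). Rab9 of the late endosome group was higher by 0.15 (edgeR adjusted p = 0.044). That call ended when any scramble library or Klf4 siRNA replicate 1 or 3 was left out, among scramble libraries alone, with no treatment term and with the DESeq2 Wald test. None of the 7 members for constitutive exocytosis and the cilium passed, nor did any of the 4 less studied members. Rab34, which passed, is also tied to the cilium but was counted with the ER and Golgi. The counts of both groups, for batch and for treatment, depend on that placement.

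Whether the Klf4 siRNA difference itself differed between batches was tested with an interaction term. It passed the threshold for 0 of 44 members and for 0% of all tested genes (edgeR, with 0 members and 540 of all genes at an unadjusted p under 0.05). Batch 2 held a single Klf4 siRNA library, which limits this test.

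Reads of some members cannot be assigned with certainty. Rab43 and Rab4b share 89.4% and 80.3% of the 50-base words of their longest transcripts with other genes, chiefly Gm45140 and Gm21983, which overlap them on the same strand. Exons of 18 of the 44 members overlap another annotated gene, 5 on the same strand and 13 on the opposite strand. On the opposite strand, the longest overlaps were those of Rab2b (2664 of 4163 exonic bases, with Tox4 and Gm43766), Rab24 (1258 of 2015, with Prelid1), Rab6a (708 with Mrpl48), Rab33b (661, above) and Rab39b (634 with Gm15063). Shorter ones, of 29 to 329 bases, were found for Rab3a, Rab3b, Rab5a, Rab7, Rab10, Rab11b, Rab22a and Rab40c. On the same strand, Rab18 shares 305 bases, Rab27a 149 and Rab11a 107, beside Rab4b and Rab43 with 1368 and 4164.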

How the data were processed

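Poly(A) RNA of 8 alphaTC6 libraries was analysed as raw counts per gene deposited by the authors in a table with a column per library. STAR, featureCounts, FastQC and DESeq2 and the build mm10 are named in the submitters' processing notes, without versions; the trimming with cutadapt is known from the table's name, and annotation and strand setting are not given in the sources used here. All 55536 gene identifiers and symbols matched GENCODE M21 (GRCm38), the source of positions and exon lengths. Promoter sequences are RefSeq's (GRCm38.p6), matched by symbol for 37 of 44 members.

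Genes were filtered with filterByExpr (16333 kept), scaled with TMM (factors 0.964 to 1.02) and fitted with robust quasi-likelihood in edgeR 4.0.16 under R 4.3.3 with batch and treatment as terms (5 residual degrees of freedom), after the design text's mention of edgeR with batch correction. P-values are two-sided, adjusted by Benjamini-Hochberg over all tested genes, with a threshold of 0.05. Standard errors were derived from the F statistic of each coefficient. Changes within a batch compare mean log2 CPM, computed with prior count 2. The script was tested on simulated counts for 16137 genes with planted log2 changes of 0.3 or 1 in size. Of 160 genes past the threshold, 16 had no planted change, a larger share than the threshold of 0.05. Changes of 0.3 were recovered for 57% of their planted genes and changes of 1 for 87.9%. All members past the threshold for treatment except Rab33b and Rab9 had fitted changes under 0.3 in size. Their calls, and the lack of a call for other members, are thus uncertain. P-values rest on the spread between libraries; counts include any PCR duplicates.

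Members, roles and lists were chosen with earlier results of these data known. Named were Rab3a, Rab27a, every member past the threshold for treatment, the 10 with the largest batch differences past it, and up to 4 genes per list, those of smallest adjusted p. Members named beyond these were chosen after their values were seen. Alternatives were a replicate block, no batch term, DESeq2 size factors, batch 1 alone, the Wald test of DESeq2 1.42.0, limma-voom (limma 3.58.1), other filters, scramble libraries alone or no treatment term for batch, and each library left out.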

Additional observations from a re-analysis of the deposited data

Results flagged for a closer look

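For each of the 18 Rab genes given by library, the highest and lowest of the 4 libraries per treatment were set against their neighbour in rank, and the gap was divided by the spread from lowest to highest. Of 36 sets of 4 libraries, 4 had a gap above the critical 0.829. Chance passes it in about 1 of 20 sets when the 4 libraries are of one kind, which does not hold here: the Klf4 siRNA libraries span both batches, and 10 of the 18 genes were named for their batch differences, so the 4 gaps cannot be read against chance. All 4 concerned Klf4 siRNA replicate 3, the one Klf4 siRNA library in batch 2. For Rab33b, Rab27b and Rab4a it lay above the other Klf4 siRNA libraries, with gaps of 0.846, 0.9 and 0.832, and for Rab34 below them, with a gap of 0.964. With that library left out, the log2 fold change after Klf4 siRNA was -0.56 for Rab33b, and Rab34 had an edgeR adjusted p of 0.082.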

How the results depend on the processing

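The count of Rab genes past the threshold for treatment (10, of which 8 lower and 2 higher) was 3 (3 lower, 0 higher) without the batch term, 6 (5 lower, 1 higher) in batch 1 alone and 4 (4 lower, 0 higher) when a replicate block replaced the batch term. It ranged from 5 to 12 when a library was left out (5 to 10 lower, 0 to 2 higher), and from 9 to 11 under the other tools, scalings and filters. All genes lost under an alternative kept their sign, and only Rab28 and Rab3c were gained. Without the batch term, in batch 1 alone and with the replicate block, 6.82%, 13.6% and 9.09% of the members passed. The share of all tested genes that passed also fell without the batch term and without scramble replicate 1 or 2 or Klf4 siRNA replicate 3 (above). For batch 1 alone and the replicate block that share is not given here. Whether any loss of calls was particular to the Rab genes, or to the regulators below, was not tested. For the 19 regulators and effectors (9 higher, 10 lower) the counts were 2 (2 higher, 0 lower) without the batch term, 11 (5 lower) in batch 1 alone and 10 (2 lower) with the replicate block, and ranged from 7 to 20 with a library left out (4 to 11 higher, 2 to 12 lower). The replicate numbers were not treated as pairs, because no label ties them to a shared culture. Deviations of same-numbered libraries from their treatment means correlated at 0.492, 0.413, 0.716 and -0.341 for numbers 1 to 4. Libraries of numbers 1 to 3 share a batch and those of number 4 do not. These correlations thus carry batch and do not show whether the numbers pair the samples. For batch, the count of 19 (14 higher, 5 lower) ranged from 13 to 20 with a library left out (9 to 15 higher, 4 to 6 lower), and without the treatment term 3 were lower. The interaction passed for 0 members in every fit run. No value reversed. Fewer libraries enter batch 1 alone and the fits with a library left out; for the other changes the cause was not tested. Rab27b, Rab39, Rab4b, Rab43 and Rab13, with means under 3 CPM, have the largest standard errors and could show large changes only.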
